A study of Homo sapiens with 2 samples.

Results

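The death-associated protein kinases are a small family of serine/threonine kinases, here the 5 genes DAPK1, DAPK2, DAPK3, STK17A and STK17B. They were compared between C4-2B, a prostate cancer line of human origin that responds to the antiandrogen enzalutamide, and C4-2B-MDVR, a resistant line that the submitters selected from C4-2B by prolonged culture with the drug. Each line was measured on 1 Affymetrix array, and 12 of its 54675 probe sets carried the symbol of 1 of these genes and no other. By gene, they are 5 of 19775 named on the array. A further 2 probe sets listed DAPK3 together with the microRNA gene MIR637 and were kept apart. The genes were picked with the values of DAPK1 already known, so all differences between the arrays are given as descriptions.

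Both lines grew in RPMI-1640 with serum and antibiotics and neither received a treatment before RNA was isolated, so enzalutamide belongs to the history of C4-2B-MDVR and, per the labels, not to the sampled culture. Whether the resistant line is 1 clone is not given in the labels. The free-text note on each sample names docetaxel, and that on the resistant sample a docetaxel-resistant line called TaxR. The title, source and cell line fields name C4-2B-MDVR and were followed, so each value below refers to the array labelled with that line. The labels name whole-transcript labelling kits, which are usually paired with Affymetrix designs other than the 3′ expression array whose annotation names these probe sets, and what this does to the intensities was not tested. Pearson's r between the arrays was 0.978 over the log2 values of all probe sets, which are not independent replicates, and the median log2 difference was 0.04. With 1 array a line there is no spread between replicates and no p-value, SD or SE for any value, and precision is limited by the number of arrays. Each array's median intensity served as detection floor (41.9 in C4-2B against 43.5 in C4-2B-MDVR), because detection calls were not used here. Of 10 luminal prostate markers 8 were measured, and all 8 lay above this floor on both arrays, among them KRT18 (4337 in C4-2B against 4038 in C4-2B-MDVR). By 2-fold or more, 2 of the 8 were lower in C4-2B-MDVR and 0 higher. These were KLK3, which encodes prostate-specific antigen, at 8379 and 172, and its relative KLK2 at 1263 and 295. The other KLK3 probe sets, above the floor on both arrays, differed by −6.24 and −0.35 on the log2 scale. Those of KLK2 differed by −2.37, −0.88 and 0.20, the last under the floor on both arrays. Of 15 measured fibroblast, immune and endothelial markers 6 were above the floor and 0 were 2-fold or more apart by their brightest probe set, though another probe set of the collagen gene COL1A1 differed by 1.20. Among 5 measured immune markers CD3E was the 1 above the floor (69.9 in C4-2B against 73.6 in C4-2B-MDVR). The leukocyte marker PTPRC was under it on both arrays (17.3 and 16.7). Of the fibroblast markers 3 of 6 were above it, among them COL1A1 (255 and 217), and of the endothelial markers 2 of 4.

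All 5 kinases share a catalytic domain close to that of myosin light chain kinase. DAPK1 is a long calmodulin-regulated protein with ankyrin repeats, a cytoskeleton-binding region and a death domain, and was found in a screen for genes needed for interferon gamma-induced cell death. Calmodulin binding relieves its autoinhibition, and it phosphorylates myosin light chain and the autophagy protein beclin 1. DAPK2 is a shorter calmodulin-regulated relative, DAPK3 (ZIPK) acts through a leucine zipper without calmodulin, and STK17A and STK17B (DRAK1 and DRAK2) are short kinases, of which STK17B is best known from lymphocytes. The DAPK1 promoter is rich in CpG dinucleotides and is often methylated in tumours. Methylation was not measured here.

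RefSeq start sites (GRCh38.p14) matched all 5 genes with 6 promoter windows, each running from 250 bases before to 50 bases after a start. The 2 DAPK1 windows and the STK17B window are shown because these genes held the probe sets that were 2-fold or more apart, with every CpG in capitals, read 5′ to 3′ on the gene's strand. The DAPK1 windows are chr9:87497617-87497916 and chr9:87498332-87498631 on the plus strand, and the STK17B window is chr2:196171529-196171828 on the minus strand.
DAPK1 window 1: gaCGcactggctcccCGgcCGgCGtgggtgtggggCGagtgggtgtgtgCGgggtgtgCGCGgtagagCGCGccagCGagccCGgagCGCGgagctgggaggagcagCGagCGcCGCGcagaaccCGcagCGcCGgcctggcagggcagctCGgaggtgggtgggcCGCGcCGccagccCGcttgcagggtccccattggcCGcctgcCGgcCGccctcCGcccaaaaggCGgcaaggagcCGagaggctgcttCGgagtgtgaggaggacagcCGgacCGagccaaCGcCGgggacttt
DAPK1 window 2: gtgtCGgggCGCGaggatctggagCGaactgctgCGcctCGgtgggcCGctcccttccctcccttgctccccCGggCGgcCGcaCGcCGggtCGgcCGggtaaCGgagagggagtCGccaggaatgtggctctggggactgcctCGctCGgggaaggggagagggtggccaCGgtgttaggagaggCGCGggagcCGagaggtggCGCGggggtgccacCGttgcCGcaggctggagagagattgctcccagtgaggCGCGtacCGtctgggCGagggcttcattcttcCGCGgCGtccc
STK17B window: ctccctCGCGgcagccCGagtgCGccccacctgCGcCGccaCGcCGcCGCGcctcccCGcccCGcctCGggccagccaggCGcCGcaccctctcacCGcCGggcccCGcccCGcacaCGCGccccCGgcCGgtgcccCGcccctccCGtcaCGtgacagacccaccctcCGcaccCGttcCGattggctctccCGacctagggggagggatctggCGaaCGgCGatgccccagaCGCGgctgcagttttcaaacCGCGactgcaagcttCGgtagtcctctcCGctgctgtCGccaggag

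The DAPK1 windows held 37 and 33 CpGs and the STK17B window 40, against a median of 14 over 35116 promoter windows of the same length. Windows with as many CpGs or more made up 11.3% of all windows for the first DAPK1 window, 17.2% for the second and 7.61% for STK17B. The DAPK2, DAPK3 and STK17A windows held 33, 40 and 40 CpGs. Whether CpG density bears on the differences between the arrays was not tested. The GC box letters GGGCGG, searched on both strands like each motif here, occurred 2 times in the first DAPK1 window, 1 time in the second and 3 times in STK17B, and at least 1 time in 45.0% of all windows. The letters CCAAT occurred 1 time in the first DAPK1 window and in the STK17B window, 0 times in the second DAPK1 window, and in 34.6% of all windows. The letters CACGTG occurred 1 time in the STK17B window, in 0 of the other 5 and in 7.26% of all windows. Neither TTCNNNGAA, the interferon gamma-activated site (7.66% of all windows), nor AGAACA, an androgen receptor half-site (14.8%), occurred in any of the 6 windows.

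DAPK1 was far higher in C4-2B-MDVR, and it was the 1 gene of the family with such a difference. Probe set 203139_at had a deposited intensity of 21.5 in C4-2B against 1494 in C4-2B-MDVR, which is 6.12 on the log2 scale. Its place among all probe sets of an array went from percentile 32.7 in C4-2B to percentile 97.0 in C4-2B-MDVR. The C4-2B value was under the floor, so the difference is a bound: against the floor, this probe set was at least 35.7-fold higher.

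The other DAPK1 probe set, 211214_s_at, went from 14.8 to 133, which is 3.16 on the log2 scale and at least 3.16-fold against the floor. Both probe sets therefore read little or no DAPK1 signal in C4-2B against clear signal in C4-2B-MDVR. Since both C4-2B values were under the floor, the measured differences give no rank among probe sets. Of genes with 2 probe sets, 0.578% had both 2-fold or more higher. DAPK1-IT1, a transcript that lies within an intron of DAPK1 and has 1 probe set of its own, was at 12.9 and 14.8, under the floor on both arrays.

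**Figure D1:**
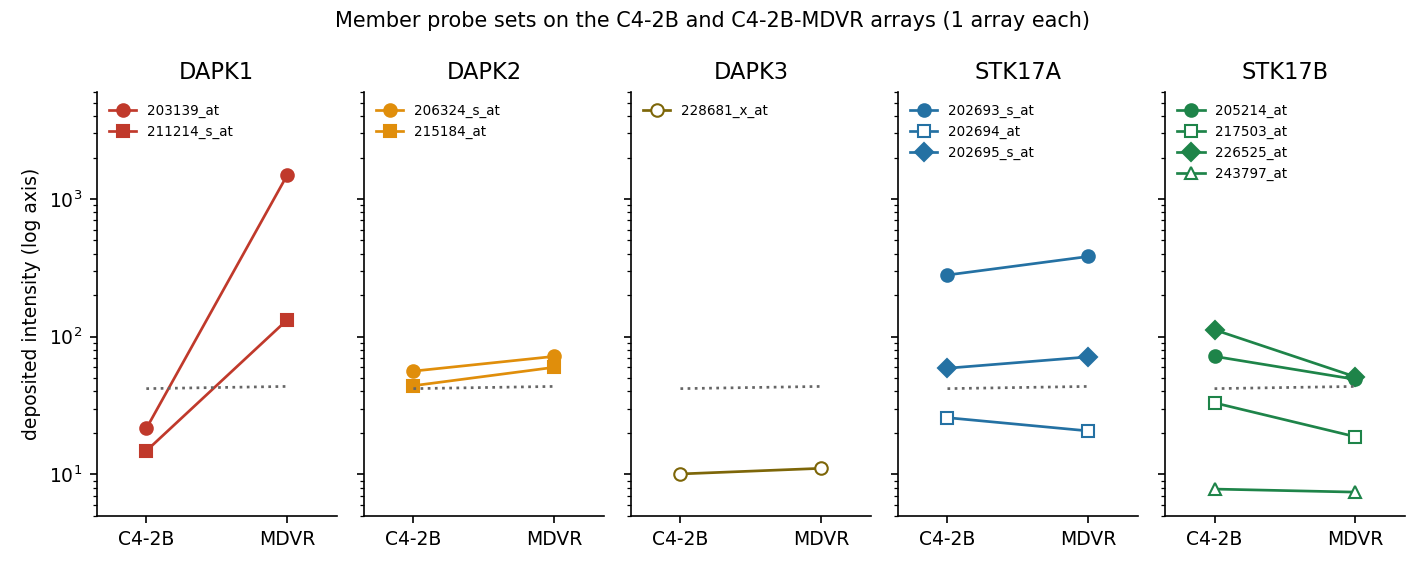
Deposited intensity (log axis) of the 12 member probe sets on the C4-2B array and the C4-2B-MDVR array (shortened to MDVR), with 1 line for each probe set and the detection floor dotted. Open symbols mark probe sets under the floor on both arrays. DAPK1 starts under the floor and reaches 1494 and 133, while the STK17B lines slope down.

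DAPK2 differed little. Probe set 206324_s_at was at 56.2 in C4-2B against 71.9 in C4-2B-MDVR, differing by 0.36. on the log2 scale Probe set 215184_at was at 44.0 and 59.9, a log2 difference of 0.44. Both were above the floor on each array, though close to it, and both read higher in C4-2B-MDVR by less than 2-fold. Among genes with 2 probe sets 39.1% had both differences above 0.

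DAPK3 had 1 probe set of its own, 228681_x_at, at 10.1 and 11.0, under the floor on both arrays, so no difference could be read from it. Its suffix marks probes that can match several transcripts. The 2 probe sets that list MIR637 and DAPK3 together, 203890_s_at and 203891_s_at, were well above the floor. The first was at 143 in C4-2B against 149 in C4-2B-MDVR (log2 difference 0.07) and the second at 136 and 149 (0.13). These signals were close to equal on both arrays, and which of the listed genes they come from is not given by the annotation.

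STK17A was measured by 3 probe sets. The brightest, 202693_s_at, was at 281 in C4-2B against 383 in C4-2B-MDVR, differing by 0.45. on the log2 scale Probe set 202695_s_at was at 59.0 and 71.3 (0.27). Both were above the floor on each array and read higher in C4-2B-MDVR by less than 2-fold. The third, 202694_at, was at 25.8 and 20.7 (−0.32) and under the floor on both, so its opposite sign carries no order. Of genes with 3 probe sets, 30.2% were split in this way, with 2 differences above 0 and 1 below.

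STK17B was the 1 member for which each probe set gave a lower value in C4-2B-MDVR. Of its 4 probe sets, though, 2 were under the floor on both arrays. Probe set 226525_at was at 112 in C4-2B against 51.0 in C4-2B-MDVR, differing by −1.14 on the log2 scale, or 2.20-fold lower, which is just past 2-fold. With log2(intensity + 16) in place of log2 intensity the difference was −0.93 and no longer past it. Probe set 205214_at was at 71.9 and 48.9 (−0.56), the member probe set nearest to 2-fold on the other side among those above the floor.

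The remaining STK17B probe sets were under the floor on both arrays, so their values have no order. Probe set 217503_at was at 33.0 and 18.7 (−0.82) and 243797_at at 7.80 and 7.42 (−0.07). In C4-2B-MDVR the 2 brighter probe sets were thus only just above the floor of 43.5. Among genes with 4 probe sets 13.1% had all 4 differences below 0, and 7.25% had at least 1 that was 2-fold or more lower.

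Counted together, 2 of the 12 member probe sets were 2-fold or more higher in C4-2B-MDVR with their brighter value at or above the floor, and both belonged to DAPK1. By the same rule 1 of 12, of STK17B, was 2-fold or more lower, and the other 9 were neither. Among all 54675 probe sets, 1.34% were higher and 2.1% lower by this rule. The genes were chosen from this same comparison, so these counts are a description. Of the 12 probe sets 8 passed the floor on the brighter array, and the 2 of DAPK1 did so through C4-2B-MDVR alone. The median difference of all 12 was 0.20, against 0.04 over all probe sets.

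**Figure D2:**
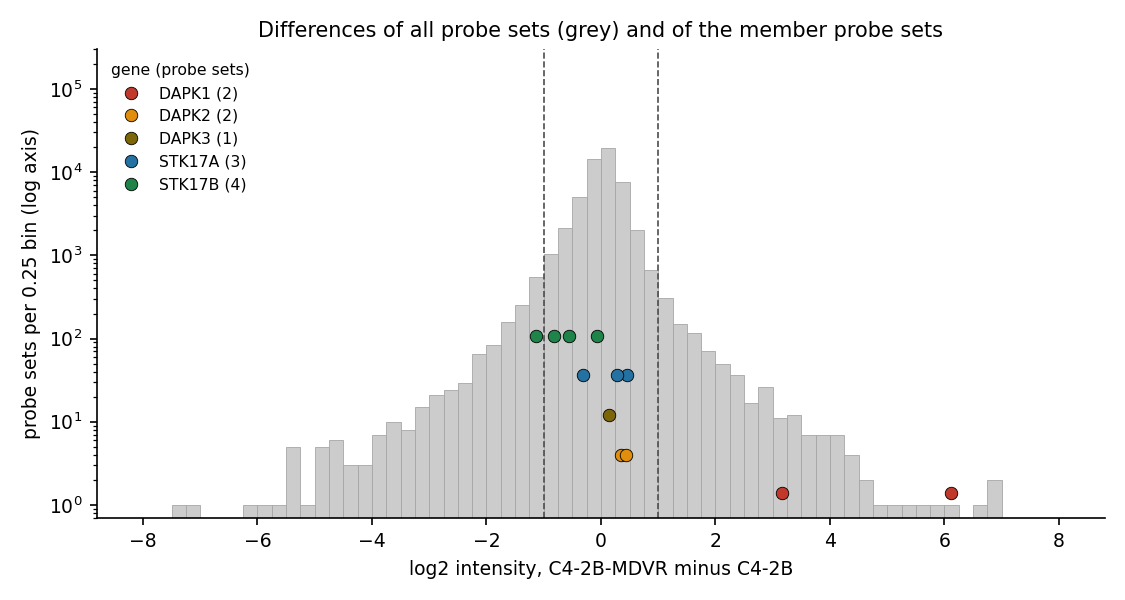
Number of probe sets (log axis) by log2 difference, C4-2B-MDVR minus C4-2B, for all 54675 probe sets in grey, with the 12 member probe sets as points whose height has no meaning and dashed lines at 2-fold. The DAPK1 points at 3.16 and 6.12 lie in the far right tail, and the other 10 lie between −1.14 and 0.45.

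The 6 named probe sets whose measured log2 difference was nearest to that of DAPK1 203139_at over the 2 arrays were of LRRN1, HGF, GCG, TENM2, FSTL5 and BEX1. All but BEX1 were under the floor in C4-2B, so their measured differences have no order. Only bounds can be set beside the 35.7-fold bound of DAPK1 203139_at. LRRN1, a leucine-rich repeat membrane protein, was at 28.5 in C4-2B against 1211 in C4-2B-MDVR, at least 28.9-fold higher. HGF, hepatocyte growth factor, was at 5.91 and 570 (at least 13.6-fold), and GCG, the glucagon precursor, at 8.46 and 531 (at least 12.7-fold). The bounds of TENM2 and FSTL5 were 8.65-fold and 7.98-fold. BEX1, above the floor on both arrays, was at 66.7 and 1938, a log2 difference of 4.86. A bound is a lower limit, so a smaller bound does not show a smaller difference than that of DAPK1.

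Genes next to DAPK1 on chromosome 9 did not share its difference. Of the 5 measured protein-coding genes on each side, in RefSeq order, 0 of 10 were 2-fold or more higher, and their median log2 difference was −0.13. By gene, with the brightest probe set standing for each, 2.15% of 19775 named genes were 2-fold or more higher and 2.38% lower. The adjoining GAS1, a growth arrest gene, lay below the floor on each array (26.9 and 24.5). On the other side CTSL, the gene of the lysosomal protease cathepsin L, was at 487 in C4-2B against 563 in C4-2B-MDVR (0.21). GOLM1, which encodes a Golgi membrane protein, was the 1 neighbour past 2-fold and it was lower, at 679 and 249 (−1.45), while its other probe set was under the floor on both arrays (0.25) and the mean was −0.60. Between GOLM1 and GAS1 lay ISCA1 (−0.71) and TUT7 (−0.84), also lower, by less than 2-fold.

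The genes around STK17B on chromosome 2 gave little to compare, since 4 of 10 were above the floor, and 0 were past 2-fold (median 0.06). The adjoining DNAH7 (26.9 and 28.6) and HECW2 (11.2 and 11.7) were both under it. Around DAPK2 on chromosome 15, CA12, which encodes the membrane carbonic anhydrase XII, was at 434 in C4-2B against 1693 in C4-2B-MDVR (1.96), and 5 of its 7 probe sets were 2-fold or more higher. The genes directly beside DAPK2, HERC1 (0.40) and CIAO2A (−0.65), differed by less. Beside DAPK3 on chromosome 19 lay NMRK2 (0.34) and EEF2 (−0.09), and beside STK17A on chromosome 7 HECW1 (0.17) and COA1 (−0.17), with 0 of 10 neighbours past 2-fold in each case.

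**Figure D3:**
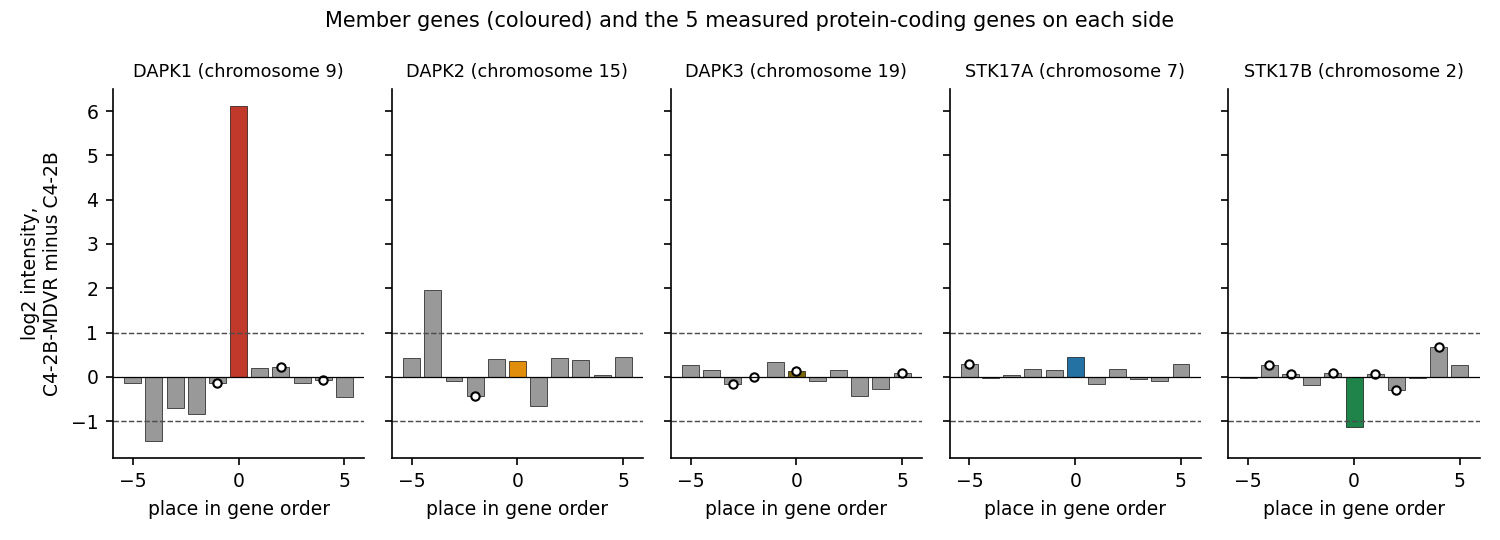
Log2 difference, C4-2B-MDVR minus C4-2B, of each member gene (coloured bar at place 0) and of the 5 measured protein-coding genes on each side in RefSeq order (grey), with 1 probe set a gene, dashed lines at 2-fold and open circles for genes under the floor on both arrays. DAPK1 stands alone at 6.12 among neighbours from −1.45 to 0.23.

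Genes that act with the family were taken from 10 lists with 118 distinct genes, of which 105 had a probe set of their own. Of these 105, 2 were 2-fold or more higher in C4-2B-MDVR (1.9%) and 3 lower (2.86%), shares near those of all named genes (2.15% and 2.38%). So the lists held no more genes past 2-fold, as a share, than the array as a whole did in the higher direction, and a similar share in the lower. Being counted needs a value above the floor, which 98 of the 105 genes reached, against 13437 of 19775 named genes. The shares are not adjusted for this. The median over the 105 genes was 0.12, against 0.05 over all named genes.

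Among 12 measured regulators and turnover factors, 1 was lower and 0 higher by 2-fold (median 0.14). That gene was MIB1, a ubiquitin ligase that marks DAPK1 for degradation, at 357 in C4-2B against 156 in C4-2B-MDVR (−1.20). The 3 MIB1 probe sets above the floor differed by −1.31, −1.20 and −0.76, and the remaining probe set was under the floor on both arrays. The ligase adaptor KLHL20 (−0.02) and its partner CUL3 (−0.09), which also turn DAPK1 over, were nearly equal by their brightest probe sets. Other probe sets ranged from −0.69 to 0.13 for KLHL20 and went down to −0.48 for CUL3. MAPK3, the kinase ERK1 that phosphorylates DAPK1, was at 0.46, and the chaperone-linked ligase STUB1 at −0.34.

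Among factors that control DAPK1 transcription or silence promoters, 1 of 10 was higher and 0 lower by their brightest probe set (median 0.05). SMAD3, which carries TGF-beta signals to DNA, was at 52.0 in C4-2B against 120 in C4-2B-MDVR (1.21). Its other 3 probe sets differed by 0.31 to 1.21, but 1 of these was under the floor on both arrays and 2 were under it in C4-2B, with bounds of at least 1.41-fold and 1.79-fold. By the rule used here 2 of the 4 probe sets were 2-fold or more higher, but 1 of these has the bound of 1.41-fold. The mean of all 4 was 0.91. SMAD4, its common partner, was at −0.68 with other probe sets up to 0.21. SMAD2 was at 0.01 with other probe sets down to −1.01. The DNA methyltransferases went in different directions, with DNMT1, which maintains methylation, at 1800 and 1194 (−0.59), DNMT3B, which adds it anew, at 191 and 314 (0.72), and DNMT3A at 0.54, each by less than 2-fold. Other DNMT3A probe sets went down to −0.21.

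Among 18 measured substrates and partners of the family 0 were higher and 1 was lower by 2-fold at the brightest probe set (median 0.02). TSC2, a brake on growth signalling that DAPK1 phosphorylates, was at 842 in C4-2B against 290 in C4-2B-MDVR (−1.54). Its other probe set was under the floor on both arrays (0.10), so the value rests on 1 probe set, and the mean of both was −0.72. The myosin light chain gene MYL12A was at −0.55, with other probe sets as low as −2.12, and MYL12B at −0.22. UNC5B was at 0.28, with other probe sets up to 1.86. Beclin 1 (BECN1) was at 740 and 768 (0.05), the DAPK3 partner PAWR at −0.11 and the glycolytic enzyme PKM at 0.49. In the GAIT complex, which represses translation downstream of DAPK1 and DAPK3, 0 of 3 measured genes were past 2-fold, with SYNCRIP at −0.47 and other probe sets down to −1.46, GAPDH at 0.13 and EPRS1 at −0.11.

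MYLK, a relative outside the family that encodes myosin light chain kinase, differed most of all listed genes by their brightest probe sets. It was at 73.5 in C4-2B against 577 in C4-2B-MDVR, above the floor on both, a log2 difference of 2.97. A second probe set went from 58.0 to 208 (1.84), and the other 3 were under the floor on both arrays (−0.04 to 0.45). Of 20 measured calmodulin-dependent kinases MYLK was the 1 past 2-fold (median 0.15), with CAMK2D at −0.62 and CAMK2G at 0.59. It was also the 1 of 13 genes of myosin contractility to be so (median 0.10), where the phosphatase subunit PPP1CB was at −0.62 and the kinases ROCK1 and ROCK2 at −0.31 and 0.21.

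Genes of cell death and autophagy differed less than DAPK1. Of 10 measured death receptor and caspase genes 0 were higher and 1 was lower (median 0.19). CASP8, the initiator caspase of death receptors, was at 120 and 47.4 (−1.35), with a mean of −0.73 over its probe sets. Its other 2 probe sets were at −0.43, under the floor in C4-2B-MDVR (at least 1.21-fold), and −0.41, under it on both arrays. The 2-fold call thus rests on 1 probe set. The receptor TNFRSF1A was at 0.44 and the caspase CASP9 at 0.39. Autophagy initiation genes had 0 of 10 past 2-fold (median 0.13), with UVRAG at 0.71, MAP1LC3B at 0.51 and ATG12 at −0.47.

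In the interferon gamma list 0 of 9 were past 2-fold (median 0.23), with the transcription factor IRF1 at 55.2 and 80.8 (0.55), the kinase JAK2 at 0.52 and the receptor chain IFNGR2 at 0.41. The genes called death-associated from the same functional screens but unrelated to the kinases also held 0 of 5 past 2-fold (median −0.20). These included EIF4G2, a translation factor (−0.32), TXN, thioredoxin (−0.29), and CTSD, cathepsin D (0.27).

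**Figure D4:**
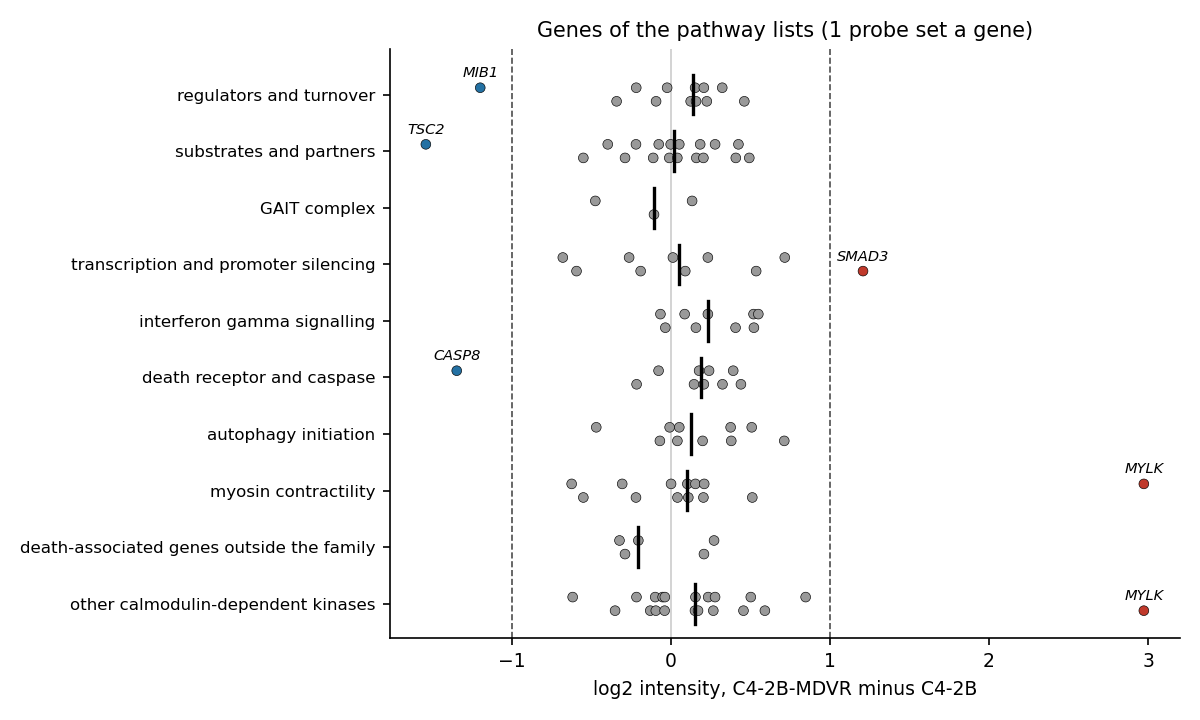
Log2 difference, C4-2B-MDVR minus C4-2B, of the measured genes of each list, with 1 point a gene, black bars at list medians and dashed lines at 2-fold. Genes 2-fold or more higher are red, those lower are blue and the rest grey, and MYLK, which stands in 2 lists, is the farthest out at 2.97.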

How the data were processed

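From 1 sample of each line, total RNA was amplified, fragmented and biotin-labelled with whole-transcript kits for Affymetrix arrays (per the labels' protocols). The authors deposited 1 intensity value a probe set, on a linear scale to judge by the range (4.44 to 20839.7 and 4.31 to 20630.6). How the authors corrected background and normalized is not given in the sources used here. Log2 was taken of the values as deposited, and differences are C4-2B-MDVR minus C4-2B.

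Gene names came from the platform annotation of 2016 (41097 with 1 symbol, 1801 with several, 11777 unnamed here), with symbols from RefSeq (GRCh38.p14). Each member probe set was described singly. For other genes the probe set with the highest mean log2 level stood for the gene. A probe set counted as 2-fold or more apart when its log2 difference was 1 or more in size and its brighter value reached the median of its array. No test of significance is possible. Named genes were all members, list and marker genes and neighbours past 2-fold, genes among the 3 of a list with the largest differences above the floor, genes beside a member, and 6 probe sets most like DAPK1. KRT18, PTPRC, ROCK1, ROCK2, KLHL20, CUL3, BECN1, MYL12B, UNC5B, PAWR, SMAD2, ISCA1, TUT7 and DNMT1 with DNMT3A were added after their values were seen. Members and lists were chosen with earlier results of these data known. Of the 118 listed genes 13 are not analysed here. A protein comparison was planned and not run, for want of the sequences. The calls were checked on simulated differences. Software was Python 3.11.15 with pandas 2.3.3, numpy 2.4.6, statsmodels 0.14.6, scipy 1.17.1 and matplotlib 3.10.9.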

Additional observations from a re-analysis of the deposited data

How the results depend on the processing

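The 12 member differences were computed under 5 other settings (loess with a span of 0.3, quantile normalization, centring on the median, log2(intensity + 16), and values under the floor raised to it). Of these 60 values 54 stayed on their side of 2-fold and within 1.5-fold of the reported difference, 6 did not and 0 of the differences of 2-fold or more changed sign. With values raised to the floor DAPK1 was at 5.16 and 1.66, and with log2(intensity + 16) at 5.33 and 2.27. With a floor at the 75th percentile the members held 1 probe set higher, 0 lower and 1 in all, since DAPK1 211214_s_at and STK17B 226525_at were then under it. With a 3-fold threshold 0 were lower, with log2(intensity + 16) 0 were lower, and without probe sets ending in _s_at or _x_at 1 was higher. The listed genes held 1 higher with a floor at the 75th percentile, 5 higher and 7 lower at 1.5-fold, 1 higher and 0 lower at 3-fold, and 1 higher and 1 lower with a gene's probe sets averaged. The neighbours held 4 lower at 1.5-fold, 0 at 3-fold and 0 with a gene's probe sets averaged. Fewer calls at a stricter floor or threshold, and more at a looser threshold, follow from its construction. The same holds for the smaller differences with log2(intensity + 16). Leaving out _s_at probe sets removes DAPK1 211214_s_at itself. For the other settings the cause was not tested. All 60 list medians stayed within 1.5-fold of the reported value, a margin wider than the medians themselves, so this says little. Their signs did not all hold. With a gene's probe sets averaged, regulators and turnover went from 0.14 to −0.16 and transcription and promoter silencing from 0.05 to −0.20. The GAIT complex went from −0.11 to 0.01. With centring on the median, substrates and partners went from 0.02 to −0.03. Of the scalings the largest shift in the median of all probe sets was from 0.04 to −0.02. No paired analysis was possible because each line has 1 array. Signal at or near the floor limits what DAPK2, DAPK3 and STK17B can show.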
